A study of Homo sapiens with 12 samples.

Results

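The enzymes that phosphorylate glucose and the mitochondrial channels to which some of them bind were followed across all 12 libraries of the study. The 8 genes were chosen by symbol among the 60623 genes counted. They are the hexokinase HKDC1, which the study overexpressed, the other hexokinases HK1, HK2 and HK3, the ADP-dependent glucokinase ADPGK, and the voltage-dependent anion channels VDAC1, VDAC2 and VDAC3. RNA was sequenced from COLO320DM and SW480, established human colon cancer cell lines. Each line was transfected with Lipofectamine 2000 and 10 µg of either pCMV6-HKDC1, a plasmid that drives HKDC1 from the CMV promoter, or the empty pCMV6-Entry vector. The transfection ended after 24 h, when the medium was replaced. The 4 groups are thus COLO320DM with pCMV6-Entry, COLO320DM with pCMV6-HKDC1, SW480 with pCMV6-Entry and SW480 with pCMV6-HKDC1, each with 3 libraries. All groups shared the transfection reagent and the vector backbone, and no untransfected cells were analysed here. Nothing in the labels tells whether the 3 replicates of a group came from separate cultures. Every p-value here therefore reflects the spread among these samples only, which may be technical.

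Hexokinases add a phosphate to glucose as it enters the cell, which traps it and opens glycolysis, the pentose phosphate pathway and glycogen synthesis. HK1 and HK2 begin with a short hydrophobic segment that inserts into the outer mitochondrial membrane, where VDAC, the pore through which ADP and ATP cross that membrane, holds the enzyme close to mitochondrial ATP. HK1 is the broadly expressed form, HK2 is raised in many tumours, HK3 lacks the mitochondrial segment, and HKDC1 was the last of the family to be described. ADPGK belongs to another protein family, uses ADP in place of ATP and sits at the endoplasmic reticulum.

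The difference at the start of these proteins can be read in the first 63 coding bases (21 codons) of the annotated transcripts in GENCODE 29, shown because this stretch encodes the mitochondrial segment of HK1 and HK2. HK1 is printed in lower case, and in the others capitals mark bases identical to HK1 at the same position.
HK1: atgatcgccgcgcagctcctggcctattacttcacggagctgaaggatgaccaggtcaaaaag
HK2: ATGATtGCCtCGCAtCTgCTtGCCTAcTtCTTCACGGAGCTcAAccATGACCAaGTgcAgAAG
HKDC1: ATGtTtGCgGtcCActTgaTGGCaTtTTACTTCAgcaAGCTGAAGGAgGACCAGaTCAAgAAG
HK3: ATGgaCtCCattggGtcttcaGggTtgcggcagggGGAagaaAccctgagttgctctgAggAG
HK2 shared 49 of the 63 bases with HK1 (77.8%), HKDC1 shared 46 (73%) and HK3 shared 16 (25.4%). Over the whole coding sequence, HKDC1 was 72.5% identical to HK1 and 72.7% identical to HK2, and HK1 and HK2 were 74.1% identical to each other. The longest run of identical bases was 23 between HKDC1 and HK1, 23 between HKDC1 and HK2, and 30 between HK1 and HK2. The coding sequences of HK1, HK2 and HKDC1 were each 2754 bases long. Among the channels, VDAC1 and VDAC2 were 72.6% identical, VDAC1 and VDAC3 68.6%, and VDAC2 and VDAC3 73.6%, with no identical run above 17 bases.

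Library totals ranged from 33790733 to 45451279 counts. Levels are given in CPM, the count of a gene relative to the size of its library after scaling between libraries by the trimmed mean of M values (TMM), and levels of different genes are compared as CPM per kilobase of exon. The labelled tissue was checked against 10 markers of colon epithelium. In SW480, 9 of 10 were above 1 CPM in every library, with a summed level of 6611–9531 CPM. In COLO320DM, 6 or 7 of 10 were above 1 CPM, the sum of 1591–1805 CPM was mostly CDX2, CDX1 had 0 counts in all 6 libraries, and the cell adhesion gene EPCAM was at 1.81 ± 0.42 CPM with empty vector (SD, n = 3). The 5 leukocyte markers summed to 31.8–41.9 CPM in COLO320DM, mostly PTPRC, and to 0.80–1.53 CPM in SW480, where PTPRC had 0–3 counts. The sums of 8 neuroendocrine, 5 fibroblast and 3 endothelial markers were 2.95–8.75, 12.8–22.1 and 0.02–1.14 CPM. The epithelial and leukocyte markers move with every difference between lines given here, and their part in those differences was not tested.

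HKDC1 lies on chromosome 10 at 69220332–69267552 on the plus strand of GRCh38, 2431 bases before HK1, its neighbour in the same orientation at 69269984–69401884, with no exonic base in common. With empty vector, HKDC1 had 0, 1 and 1 counts in the COLO320DM libraries and 1480, 1275 and 1549 counts in the SW480 libraries, which were 38.4, 34.7 and 34.1 CPM. With pCMV6-HKDC1, the 3 COLO320DM libraries reached 6580, 9179 and 9640 CPM. The SW480 libraries reached 13580, 12230 and 14310 CPM. The plasmid therefore raised HKDC1 in all 6 libraries, as the labels state, and with empty vector only the SW480 libraries held more than 1 HKDC1 count. HKDC1 was 373-fold higher with the plasmid in SW480 (95% counting interval 362–385). In COLO320DM the ratio rests on 2 counts over the empty-vector group and was 534000, with a counting interval of 148000–4410000. These intervals cover counting error only.

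With the plasmid, HKDC1 ranked 23rd to 33rd of all genes by CPM per exonic kilobase in COLO320DM (1558–2283) and 14th to 18th in SW480 (2896–3388). In SW480 with empty vector it ranked 6137th to 6650th, at 8.07–9.09 CPM per exonic kilobase. These values use the 4223 exonic bases of the annotated gene, and the same counts over its 2754 coding bases would be 1.53 times higher. SW480 held more HKDC1 RNA than COLO320DM with the plasmid, by 0.66 on the log2 scale (SE 0.14, adjusted p = 0.00106, edgeR quasi-likelihood test with Benjamini-Hochberg adjustment), and the 3 libraries of each line did not overlap. A larger share of transfected cells and more RNA per transfected cell cannot be told apart in bulk RNA.

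The antisense gene AL596223.2, at chromosome 10 69265342–69268148, followed HKDC1. It shares 143 bases with an HKDC1 exon (69265585–69265727). It had 0 counts in all 3 COLO320DM libraries with empty vector, 87–128 counts in SW480 with empty vector, 34871–42697 in COLO320DM with the plasmid and 55682–63237 in SW480 with the plasmid. These were 11.7–12.9% of the HKDC1 count with the plasmid in both lines and 6.82–8.26% in SW480 with empty vector. A second antisense gene, AL596223.1 (69215333–69232490), overlaps the HKDC1 locus without sharing an exonic base. It had 0 or 1 counts in COLO320DM with either plasmid, and 10–23 counts in SW480 with either plasmid. The strand setting of the counting is not given in the sources used here, so reads from a gene and its antisense partner cannot be told apart.

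**Figure D1:**
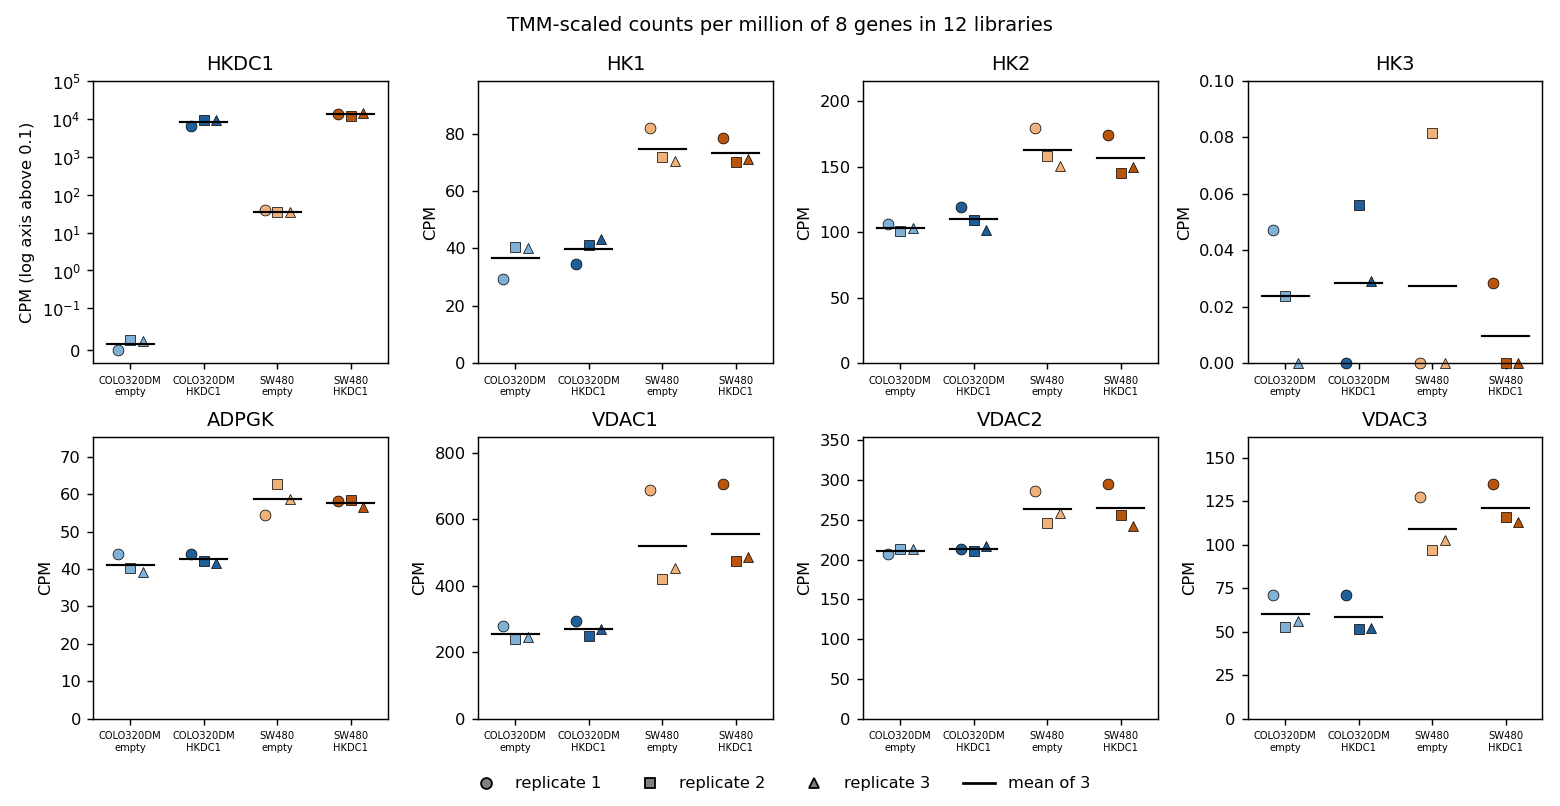
TMM-scaled CPM (y axes) of each gene in the 4 groups (x axes), 1 point per library with the replicate shown by its shape and the mean of 3 by a line. The HKDC1 axis is logarithmic above 0.1, and HKDC1 rises from 0–0.024 to 6580–9640 CPM in COLO320DM, while HK1, HK2, ADPGK and the VDAC genes differ between the lines and overlap between plasmids.

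The first question was whether the other hexokinases changed when HKDC1 was supplied. HK1 was at 29.3, 40.4 and 40.0 CPM in COLO320DM with empty vector and at 34.5, 41.0 and 43.4 CPM with pCMV6-HKDC1. In SW480 it was at 82.0, 72.0 and 70.3 CPM with empty vector and at 78.3, 70.1 and 71.1 CPM with the plasmid. The ranges overlapped in both lines, and the log2 fold change was 0.12 (SE 0.13, 95% interval −0.16 to 0.39) in COLO320DM and −0.03 (SE 0.13, −0.31 to 0.24) in SW480. HK2, on chromosome 2 at 74833981–74893359, was at 106, 101 and 103 CPM with empty vector and 120, 109 and 102 CPM with the plasmid in COLO320DM. In SW480 HK2 was at 180, 158 and 151 CPM with empty vector and 175, 145 and 150 CPM with the plasmid. The HK2 groups overlapped as well, with log2 fold changes of 0.09 (SE 0.10, −0.12 to 0.31) and −0.06 (SE 0.10, −0.27 to 0.16).

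ADPGK (chromosome 15, 72751369–72785846, minus strand) stood at 44.1, 40.4 and 39.1 CPM with empty vector and 44.1, 42.2 and 41.6 CPM with the plasmid in COLO320DM. Its values in SW480 were 54.4, 62.9 and 58.8 CPM and 58.2, 58.6 and 56.6 CPM. The log2 fold changes were 0.05 (SE 0.08) and −0.02 (SE 0.08), and the groups overlapped in each line. HK3 (chromosome 5, 176880869–176899346, minus strand) had 0–3 counts in every library and did not pass the filter on low counts.

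The channels gave the same picture. VDAC1 (chromosome 5, 133971871–134004975, minus strand) was at 280, 239 and 245 CPM with empty vector and 294, 249 and 270 CPM with the plasmid in COLO320DM. In SW480 it was at 687, 421 and 452 CPM with empty vector and 707, 474 and 487 CPM with the plasmid. VDAC1 was higher with the plasmid in all 3 same-numbered pairs of each line, by a log2 fold change of 0.09 (SE 0.19, 95% interval −0.31 to 0.49) and 0.10 (SE 0.19, −0.31 to 0.50), inside the spread between the replicates of a group. With the replicate number as a block its SE was 0.05 in each line, the interval was −0.02 to 0.20 in COLO320DM (adjusted p = 0.946) and −0.0008 to 0.21 in SW480 (adjusted p = 0.506, edgeR), and it was again not called. VDAC2 (chromosome 10, 75210154–75231448), the form that binds the cell death protein BAK, was at 207, 213 and 213 CPM with empty vector and 213, 211 and 217 CPM with the plasmid in COLO320DM. In SW480 it was at 287, 246 and 259 CPM and 296, 257 and 242 CPM, and its log2 fold changes were 0.02 (SE 0.09) and 0.01 (SE 0.09). VDAC3 (chromosome 8) was at 71.2, 52.6 and 55.9 CPM with empty vector and 70.9, 51.4 and 52.1 CPM with the plasmid in COLO320DM. Its SW480 values were 127, 96.7 and 103 CPM with empty vector and 135, 116 and 113 CPM with the plasmid, and the groups overlapped in both lines. Its log2 fold change was −0.04 (SE 0.15, −0.38 to 0.29) in COLO320DM and 0.16 (SE 0.15, −0.18 to 0.49) in SW480. With the replicate number as a block the VDAC3 interval was −0.17 to 0.07 in COLO320DM (adjusted p = 0.988, edgeR). In SW480 the blocked interval lay wholly on the positive side, at 0.04 to 0.28 (adjusted p = 0.24, edgeR), and VDAC3 was not called.

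None of the 6 tested genes other than HKDC1 was called for the plasmid in either line (adjusted p = 1 for each, edgeR quasi-likelihood test). Over all 23684 genes tested, 2 were called in COLO320DM (0.00844%) and 3 in SW480 (0.0127%), namely HKDC1 and AL596223.2 in both lines and the heat shock gene HSPA6 in SW480, which is named here after its value was seen. At an unadjusted p under 0.05 there were 312 and 356 genes over the whole table in this fit without a block, and none among the 6. With the replicate number as a block, the calls over all genes went to 18 and 180, and again held none of the 6. In the blocked fit 1289 genes in COLO320DM and 2360 in SW480 had an unadjusted p under 0.05. Those in SW480 included VDAC3 (unadjusted p = 0.00791, edgeR), so the absence of the 6 at that level holds only without the block. The 95% intervals of the 6 genes reached from 0.771-fold (VDAC3) to 1.41-fold (VDAC1) in COLO320DM and from 0.809-fold (VDAC1 and HK1) to 1.41-fold (VDAC1) in SW480, and changes within those bounds are not excluded by these data. The test of the difference between the lines in the plasmid effect called 2 of 23684 genes (0.00844%), HKDC1 and AL596223.2, and gave an adjusted p of 1 for each of the 6.

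**Figure D2:**
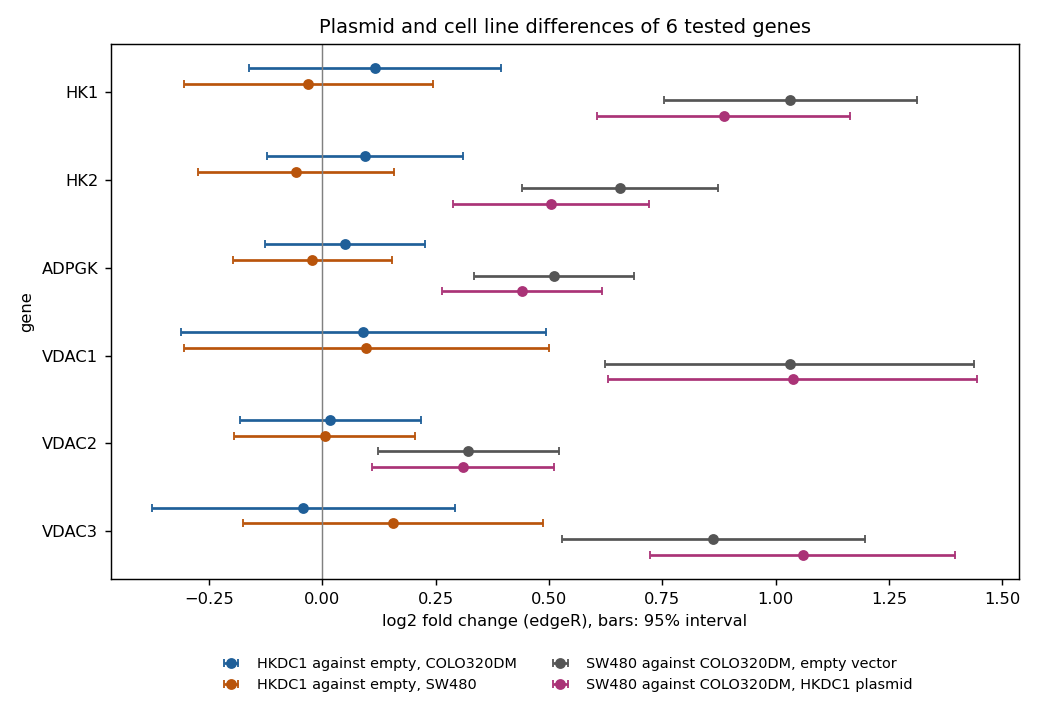
Log2 fold changes (x axis) of the 6 tested genes other than HKDC1 (y axis) from edgeR without the replicate block, with bars for the 95% interval. The 12 plasmid effects have intervals that include 0, and the 12 differences between lines lie to its right, from 0.31 for VDAC2 to 1.06 for VDAC3.

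The lines differed in every member that could be tested. With empty vector, all 7 tested genes were called higher in SW480. Of all genes tested, 71.6% were called in this comparison and 37.3% were called higher in SW480, so a call by itself is common here. HK1 was higher by 1.03 (SE 0.13, adjusted p = 8.96e-06), HK2 by 0.66 (SE 0.10, adjusted p = 5.49e-05) and ADPGK by 0.51 (SE 0.08, adjusted p = 8.41e-05) on the log2 scale in edgeR's test. VDAC1 was higher by 1.03 (SE 0.19, adjusted p = 0.000263), VDAC3 by 0.86 (SE 0.15, adjusted p = 0.000227) and VDAC2 by 0.32 (SE 0.09, adjusted p = 0.00688). HKDC1 was 2270-fold higher by its counts, 4304 against 2, with a counting interval of 629–18800. The 3 libraries of each line did not overlap for any of these 7 genes, for which an exact two-sided permutation test of 3 against 3 libraries gives p = 0.1, the smallest it can give. The share of all genes without overlap was not counted. With 71.6% of them called, the lack of overlap cannot be read as a trait of these 7.

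The 6 libraries with the HKDC1 plasmid, which do not enter the fold changes of that comparison, gave a second reading of the same difference. Both comparisons share the estimate of spread from all 12 libraries, and replicate 1 moved together under both plasmids in each line. The p-values of the second reading are therefore not independent of the first. Here 70.8% of all genes were called and 37.4% were called higher in SW480. HK1 was higher in SW480 by 0.89, HK2 by 0.51, ADPGK by 0.44, VDAC1 by 1.04, VDAC2 by 0.31 and VDAC3 by 1.06 on the log2 scale, each called again (adjusted p between 3.81e-05 and 0.0088, edgeR). Over all 12 libraries, the highest COLO320DM library stayed below the lowest SW480 library for each of the 6. For HK1 these were 43.4 and 70.1 CPM, for VDAC1 294 and 421 CPM, and for VDAC2, the closest pair relative to its level, 217 and 242 CPM. For how many of all genes the lines were apart in this way was not counted.

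The order of the members was set per exonic length. In COLO320DM with empty vector VDAC1 (78.3–91.8 CPM per kilobase) stood above VDAC2 (73.2–75.4). VDAC3 (16.5–22.4) and HK2 (16.6–17.5) overlapped. ADPGK (6.60–7.43) lay just above HK1 (4.65–6.41) without overlap. HKDC1 and HK3 were at 0–0.01 CPM per kilobase. In SW480 with empty vector VDAC1 (138–225) was above VDAC2 (86.9–102), then VDAC3 (30.4–40.0), HK2 (24.8–29.6), HK1 (11.2–13.0), ADPGK (9.17–10.6) and HKDC1 (8.07–9.09), without overlap between neighbours. The exonic length was 3.98 times the coding length for ADPGK and 2.29 times for HK1, so the order of these neighbours depends on the length used.

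Shares within the family need no scaling between libraries. Of the counts of HK1, HK2, HK3 and ADPGK together, HK2 held 57.1% ± 2.2 in COLO320DM and 54.6% ± 1.5 in SW480 (SD, n = 6 libraries of a line over both plasmids), a difference of −2.50 percentage points that did not pass the exact two-sided permutation test (p = 0.0519). With ADPGK, which is of another protein family, left out, the HK2 share differed by −5.39 points and passed (exact permutation p = 0.00216), and it also passed without replicate 1 of every group (−2.13 points, exact permutation p = 0.0286). HK1 held 20.4% ± 2.8 in COLO320DM (16.3–23.2%) and 25.3% ± 0.5 in SW480 (24.5–25.9%), and ADPGK held 22.4% ± 1.1 and 20.0% ± 1.7. The libraries of the lines did not overlap for either share (exact permutation p = 0.00216 each, 0.00325 after Benjamini-Hochberg adjustment over the 3 shares, with the tests of HK1 and ADPGK added later). Per exonic base HK2 exceeded HK1 by 2.97 ± 0.56 times in COLO320DM and by 2.24 ± 0.06 times in SW480. Without replicate 1 of every group, the HK1 share differed by 3.04 in place of 4.93 percentage points, and the ADPGK share by −0.91 in place of −2.42. When HKDC1 is counted in, it held 10.8% ± 0.1 of the hexokinase counts in SW480 with empty vector (SD, n = 3), 97.7% ± 0.6 in COLO320DM with the plasmid and 97.9% ± 0.2 in SW480 with the plasmid.

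Among the channels, VDAC1 held 58.2% ± 3.3 of the VDAC counts in SW480 and 49.1% ± 1.5 in COLO320DM (SD, n = 6 each), and VDAC2 held 29.2% ± 2.7 and 39.9% ± 2.3. Both shares differed between lines without overlap (exact two-sided permutation test of 6 against 6 libraries, p = 0.00216 each, the smallest it can give, and 0.00325 after Benjamini-Hochberg adjustment over the 3 shares). VDAC3 held 12.6% ± 0.8 in SW480 and 11.0% ± 1.2 in COLO320DM, and the ranges overlapped (exact permutation p = 0.0303, adjusted p = 0.0303). That last call was lost when replicate 2 or 3 of either COLO320DM group or of SW480 with the plasmid was left out. Without replicate 1 of every group the VDAC3 difference was 2.83 in place of 1.62 percentage points. In each line the libraries of replicate 1 moved together under both plasmids, and those of replicates 2 and 3 moved together within and across numbers. The 6 libraries of a line are thus not independent, and these p-values and those of the hexokinase shares may be too small.

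**Figure D3:**
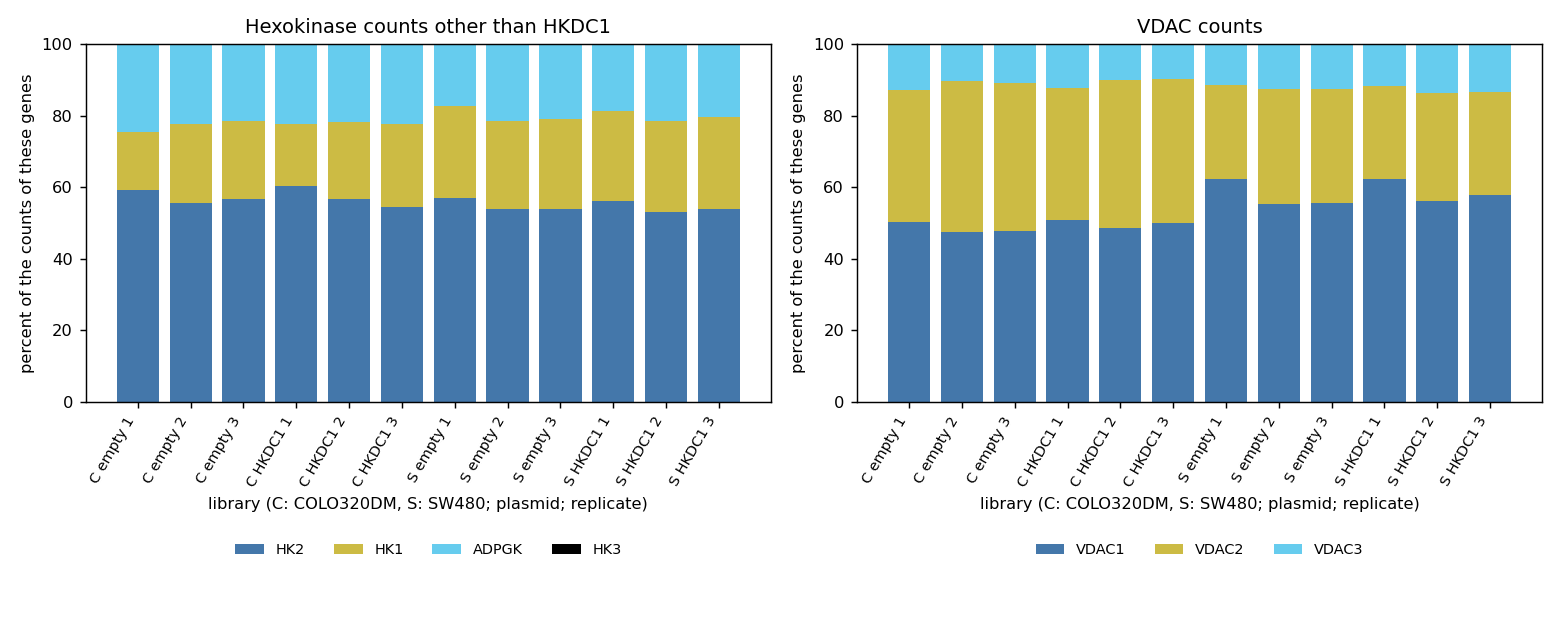
Left, the share (y axis, percent) of HK2, HK1, ADPGK and HK3 in their summed counts in each library (x axis). Right, the share of VDAC1, VDAC2 and VDAC3 in the summed VDAC counts, where VDAC1 takes 55.2–62.4% in the 6 SW480 libraries and 47.3–50.9% in the 6 COLO320DM libraries.

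Hexokinase transcripts were also set against the transcripts of their anchor. HK1 and HK2 together came to 0.132 ± 0.008 of VDAC1, VDAC2 and VDAC3 per exonic base in COLO320DM and to 0.126 ± 0.013 in SW480 (SD, n = 6 each), a difference inside the spread between libraries (exact two-sided permutation p = 0.396). With VDAC1 alone as the denominator the ratio was lower in SW480 by 0.054 (exact permutation p = 0.0152). Adding HKDC1, the ratio was 0.129 ± 0.010 with empty vector and 11.2 ± 2.6 with the plasmid in COLO320DM, and 0.161 ± 0.019 and 10.4 ± 1.8 in SW480 (SD, n = 3). Hexokinase RNA thus went from below the VDAC RNA to above it in all 6 libraries with the plasmid, which follows from the HKDC1 counts. These are RNA ratios, and the amounts of protein were not analysed here.

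**Figure D4:**
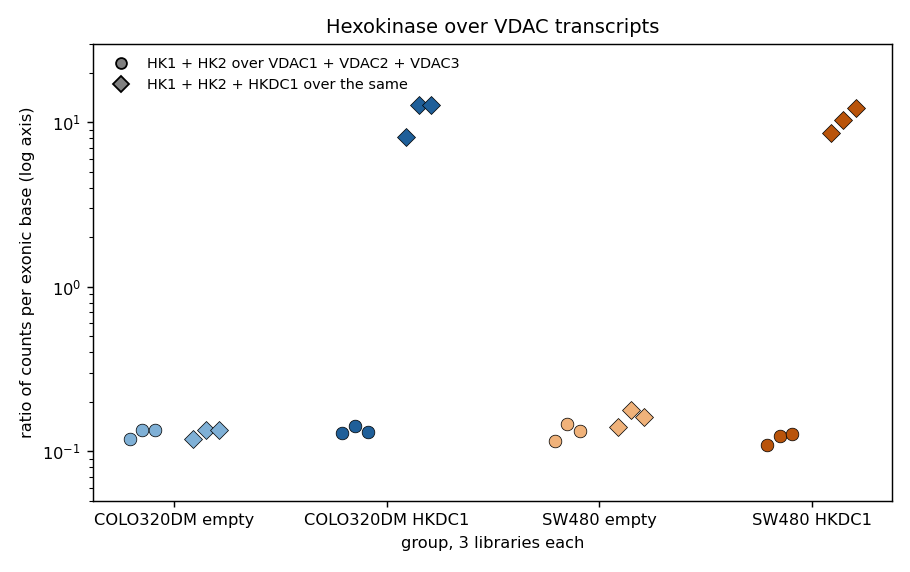
Ratio of hexokinase to VDAC counts per exonic base (y axis, logarithmic) in the 3 libraries of each group (x axis), with HK1 and HK2 as circles and with HKDC1 added as diamonds. The circles stay between 0.109 and 0.147 in all 12 libraries, and the diamonds reach 8.15–12.8 with the plasmid.

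Replicate 1 stood apart from replicates 2 and 3 in several members. In SW480, VDAC1 in replicate 1 was 1.57 times the mean of the other two with empty vector and 1.47 times with the plasmid, and 1.16 and 1.14 times in COLO320DM. VDAC3 in replicate 1 was 1.18–1.37 times the others in all 4 groups. HK1 went one way in COLO320DM (0.729 and 0.816 times) and the other in SW480 (1.15 and 1.11 times). HKDC1 from the plasmid was 0.699 times the others in COLO320DM and 1.02 times in SW480. Whether replicate 1 differed in culture, extraction or sequencing is not given in the labels. Without replicate 1 of any group, the difference between lines with empty vector was called for the same 6 genes.

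**Figure D5:**
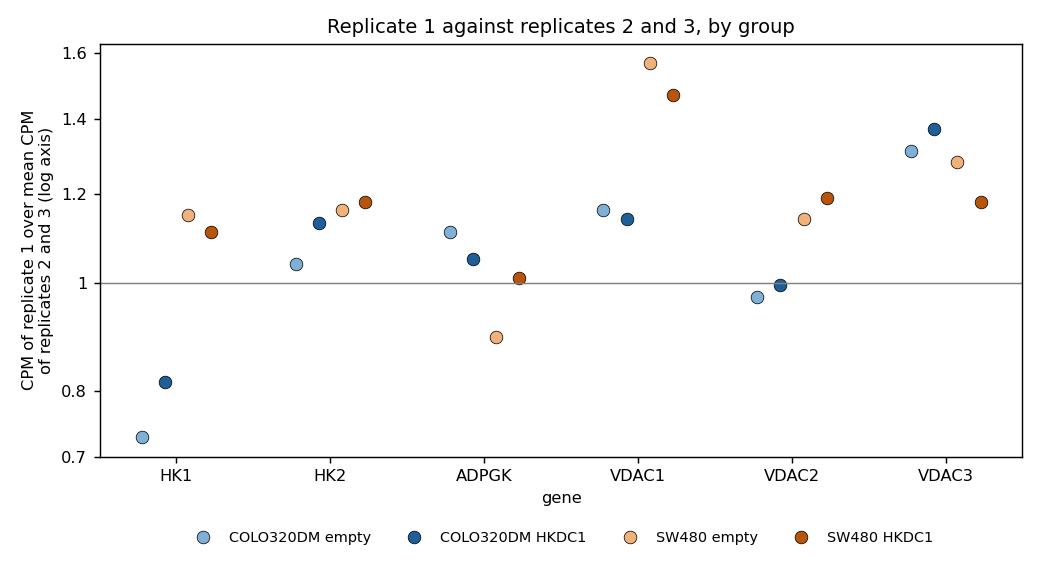
CPM of replicate 1 over the mean CPM of replicates 2 and 3 (y axis, logarithmic) for 6 genes (x axis) in the 4 groups, with a line at 1. VDAC1 in SW480 lies highest at 1.57 and 1.47, and HK1 in COLO320DM lowest at 0.729 and 0.816.

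The genes whose pattern over the 12 libraries was most like a member were found by the Pearson correlation of log2 CPM centred on the mean of each line. The points share replicate numbers and plasmid groups, so these values describe the libraries and carry no test. HKDC1 was most like AL596223.2 (0.994), then MCCC1 (0.863) and AC025271.2 (0.849). HK2 was most like PAF1 (0.962), the glucose transporter gene SLC2A1 (0.954) and TAF15 (0.941), and HK1 was most like MICB (0.978), CLU (0.964) and AP003392.3 (0.96). VDAC1 was most like NCL (0.994), CCT5 (0.994) and PTMA (0.992), VDAC2 like STRAP (0.988), RPS6 (0.982) and CAP1 (0.98), and VDAC3 like ANAPC7 (0.98), ACADSB (0.975) and MCM6 (0.975). For ADPGK they were ABLIM1 (0.961), AMD1P3 (0.934) and STOML3 (0.92).

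Of 19 other sugar kinases and enzymes of glucose 6-phosphate, 16 were tested. With empty vector 6 were called higher and 6 called lower in SW480, beside 71.6% called and 37.3% called higher among all genes, and the median log2 difference of the 16 was 0.16 beside 0.04 for all genes. GPI, which turns glucose 6-phosphate into fructose 6-phosphate, was higher by 1.42 (324 against 866 CPM, adjusted p = 5.06e-07, edgeR). PFKFB2 and PFKFB4, which set the level of the glycolytic activator fructose 2,6-bisphosphate, were higher by 1.31 and 1.11. GNE, a kinase of sialic acid synthesis, was lower by a log2 difference of −2.51, and G6PC3, a glucose 6-phosphatase, by −0.73. In the libraries with the plasmid 6 were again called higher and 6 called lower, beside 70.8% called and 37.4% called higher among all genes. There PFKFB3, of the same family as PFKFB2, stood at −0.79.

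Of 35 VDAC partners and proteins of the outer mitochondrial membrane, all were tested. With empty vector 13 were called higher and 16 called lower in SW480, again beside 71.6% called among all genes, with a median log2 difference of −0.14. With the plasmid 11 were called higher and 15 called lower, beside 70.8% called among all genes. The genes of 2 anti-apoptotic proteins moved in opposite directions, MCL1 from 1064 CPM in COLO320DM to 193 CPM in SW480 (log2 difference −2.46, adjusted p = 7.15e-11) and BCL2L1 from 27.5 to 186 CPM (2.76, adjusted p = 1.24e-10, edgeR). BCL2, another anti-apoptotic gene of the list, went the way of MCL1, from 13.9 CPM in COLO320DM to 3.99 CPM in SW480 with empty vector. The inositol trisphosphate receptors ITPR3 and ITPR1, which hand calcium to mitochondria at VDAC, were higher in SW480 by 3.68 and 2.69. SLC25A5, an ADP and ATP carrier of the inner membrane, was higher by 0.49.

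Of 9 transcription factors known to act on hexokinase genes, all were tested, with 2 called higher and 3 called lower in SW480 with either plasmid, beside 71.6% and 70.8% of all genes called. MYC, which activates HK2 in many cells, was at 3354 CPM in COLO320DM and 919 CPM in SW480 with empty vector (log2 difference −1.87, adjusted p = 8.33e-10, edgeR). A part of MYC in the HK2 difference between lines was not tested. ARNT (−1.62) and FOXK2 (−0.26) were lower in SW480 on the log2 scale, and SREBF1 (1.19) and E2F1 (0.41) were higher. In neither line was any gene of the 3 lists called for the plasmid, except MYC in SW480 when the replicate number entered as a block (a log2 fold change of −0.24 between group means of 919 and 783 CPM, adjusted p = 0.0292). That blocked fit called 180 of 23684 genes in SW480 (0.76%), 141 of them lower. These lists were drawn up with earlier results of the data known and are no independent evidence of a direction.

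Promoter windows of 300 bases (RefSeq, GRCh38.p14, 250 bases before to 50 after a start) were found for 7 of the 8 members. They are shown for HKDC1 and for the second start of HK2, since these 2 genes differed in the motifs searched and in their levels in COLO320DM. The pair was picked on these same values, so it is no evidence that motifs and levels go together. Capitals mark CACGTG (the E-box), ACGTG and GCGTG (cores of the hypoxia response element) on either strand, where CACGTG holds ACGTG on both strands.
HKDC1, chr10:69220082-69220381, plus strand: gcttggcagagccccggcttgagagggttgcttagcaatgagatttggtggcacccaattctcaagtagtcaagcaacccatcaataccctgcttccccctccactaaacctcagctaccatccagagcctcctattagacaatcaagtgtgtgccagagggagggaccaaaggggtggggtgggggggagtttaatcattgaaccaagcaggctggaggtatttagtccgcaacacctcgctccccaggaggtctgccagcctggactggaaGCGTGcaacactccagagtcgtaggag
HK2, chr2:74834920-74835219, plus strand: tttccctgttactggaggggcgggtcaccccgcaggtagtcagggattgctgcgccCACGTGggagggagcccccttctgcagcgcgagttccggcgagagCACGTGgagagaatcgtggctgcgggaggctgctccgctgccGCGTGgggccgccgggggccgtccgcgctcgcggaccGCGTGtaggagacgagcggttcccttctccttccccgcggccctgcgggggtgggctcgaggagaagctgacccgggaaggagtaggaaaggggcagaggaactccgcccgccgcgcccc
The HKDC1 window held no CACGTG, no ACGTG and 1 GCGTG. The HK2 window shown held 2 CACGTG, 4 ACGTG, all of them inside the CACGTG sites read on both strands, and 2 GCGTG. The other HK2 window (74833877–74834176) held no CACGTG, 2 ACGTG and 1 GCGTG. Of 35116 windows of that length, 7.26% held CACGTG, 21.4% ACGTG and 36.5% GCGTG. The second VDAC2 window held 1 CACGTG, and no CACGTG was found in the windows of HK1, HK3, ADPGK and VDAC1. A match is a stretch of letters and not a site in use. Whether the motifs bear on the level of any member was not tested.

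Near-identical copies and opposite-strand neighbours limit some of these counts. VDAC2P5, a processed pseudogene on chromosome 2 at 65205108–65205988, was 99.8% identical to VDAC2 with an unbroken run of 443 bases, and had up to 748 counts in a library. The 5 VDAC2 copies summed to 5.16–6.37% of the VDAC2 count, and the 13 VDAC1 copies, among them VDAC1P8 (89.7% identical) and VDAC1P1 (97.6%), to 3.22–5.28% of the VDAC1 count. Reads of a parent and such a copy cannot be told apart by these counts. Adding the copies to their parents left the VDAC1 share higher in SW480 by 9.38 percentage points and the VDAC2 share different by −10.89 points. On the opposite strand, HK2-DT beside HK2 had 40–130 counts, ADPGK-AS1 beside ADPGK 45–113, and UNC5A beside HK3 0–8 in COLO320DM and 58–188 in SW480. UNC5A was higher in SW480 by 5.30 on the log2 scale (adjusted p = 1.06e-05, edgeR), and HK2-DT did not pass the test (0.58, adjusted p = 0.199).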

How the data were processed

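RNA counts per gene were analysed for 12 libraries, 3 in each of 4 groups taken from the labels. The values are raw whole-number counts, which the authors deposited in a single table beside gene positions and exon lengths. HISAT2 2.1.0, limma and the build GRCh38 are named in the submitters' processing notes, and the read counter, annotation release and strand setting are not given in the sources used here. Per the labels' protocols, RNA was poly-A selected and primed at random.

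The 4 group means of the 12 libraries were fitted together with edgeR 4.0.16 (R 4.3.3; filterByExpr with a minimum count of 10 and total of 15, TMM, robust quasi-likelihood tests, 8 residual degrees of freedom), which kept 23684 genes. P-values were adjusted over all of them (Benjamini-Hochberg) and called under 0.05. SE is the log2 fold change over the square root of F. CPM are TMM-scaled for every gene, and length is the exonic length in the deposited table. Shares and ratios were compared with exact permutation tests (SciPy 1.17.1), and coding sequences were aligned with Biopython 1.88. Ratios of HKDC1 counts carry an exact 95% counting interval.

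To check the pairing, each library's deviation from its group mean was correlated with that of the library of the same number under the other plasmid (r = 0.40, 0.13, 0.12 for COLO320DM; 0.72, 0.44, 0.31 for SW480). All were over 0.1, so the numbers were taken to pair the plasmid groups within a line, which comes from the data and not from the labels. Replicates 2 and 3 also correlated across numbers, at values like those of the same number (r = 0.15 and 0.16 for COLO320DM, 0.37 and 0.47 for SW480). The check therefore sets apart replicate 1 only, and the pairing of replicates 2 and 3 is assumed. On simulated counts (23265 genes), the COLO320DM plasmid test recovered 35.8% of planted 1.5-fold and 87.9% of 2-fold changes, and the SW480 plasmid test (23282 genes) 37.3% and 92.4%. Of planted 1.25-fold changes, only 1.5% were recovered in COLO320DM and 3% in SW480. Changes were planted only in genes with high counts, in 67, 67 and 66 genes at once for the 3 sizes of change. The real plasmid comparisons called 2 and 3 genes. A cut-off adjusted over all genes is easier to reach when many genes change, so recovery of a single changed gene may be lower. The simulated libraries were drawn independently, without the shift that replicate 1 shares between plasmids.

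The members, gene lists and motifs were chosen with earlier results of these data known. List genes were named by rule: in each comparison of lines the 4 called of smallest p and the 2 of highest mean CPM, and every called gene up to 5 for the plasmid. Pseudogene copies were named from 10 counts, and 1 copy on a sex chromosome enters the sums only. Alternatives tried were DESeq2 1.42.0, limma-voom 3.58.1, other size factors, no filter, the replicate block and leaving libraries out.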

Additional observations from a re-analysis of the deposited data

Results flagged for a closer look

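The plasmid effect on HKDC1 differed between the lines in a test of that difference, by −10.23 on the log2 scale (adjusted p = 2.33e-08, edgeR quasi-likelihood test). With empty vector the COLO320DM libraries held 0, 1 and 1 HKDC1 counts, so the size of this value depends on the prior count. Group means went from 0.016 to 8466 CPM in COLO320DM and from 35.7 to 13370 CPM in SW480. The negative sign thus goes with unequal empty-vector levels, and the level with the plasmid was the higher one in SW480.

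VDAC3 was lower with the plasmid in all 3 same-numbered pairs of COLO320DM (log2 differences −0.005, −0.03 and −0.10) and higher in all 3 of SW480 (0.09, 0.26 and 0.14). The mean difference between the lines was 0.207. By this count of directions the difference was not tested, and edgeR's test of it gave 0.20 with an adjusted p of 1, or 0.21 with an adjusted p of 0.547 with the replicate number as a block. In SW480 alone the blocked fit gave 0.16 (SE 0.06, unadjusted p = 0.00791, adjusted p = 0.24, edgeR). In that fit 2360 of 23684 genes had an unadjusted p under 0.05. Agreement of all 3 pairs was not particular to VDAC3. HK1, ADPGK and VDAC1 were higher in all 3 of COLO320DM, and in SW480 VDAC1 was higher and HK2 lower in all 3. The share of all genes with such agreement was not counted, and the pairing of replicates 2 and 3 is assumed.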

How the results depend on the processing

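The counts of called members other than HKDC1 were the same under every alternative run, 0 for the plasmid in each line and for its difference between lines, and 6 for the lines with either plasmid. With the replicate block the count was 0 in each of the 3 plasmid comparisons and changed no member's call, and its lowest adjusted p among the 6 was 0.24, for VDAC3 in SW480. Over all genes the block moved the calls from 2 to 18 in COLO320DM and from 3 to 180 in SW480. In SW480 that count was 545, 9 and 55 when pair 1, 2 or 3 was left out, an alternative chosen after seeing the data, as was leaving out replicate 1 of all groups.

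Some plasmid effects near 0 changed sign, none of them called. Under DESeq2 size factors and under DESeq2 the VDAC1 difference between lines was −0.002. With library totals the VDAC2 effect was −0.011 in COLO320DM and −0.021 in SW480. With the replicate block it was −0.035 in SW480 without pair 1 and −0.023 without pair 2, where ADPGK was 0.024. Without replicate 1 of every group VDAC2 was −0.035 in SW480. Leaving out single libraries, the plasmid effect ranged from −0.021 to 0.208 for HK1 and −0.21 to 0.101 for VDAC3 in COLO320DM, and in SW480 from −0.083 to 0.037 for HK1, −0.145 to 0.014 for HK2, −0.095 to 0.03 for ADPGK, −0.112 to 0.346 for VDAC1 and −0.082 to 0.067 for VDAC2. The difference between lines ranged from −0.205 to 0.254 for VDAC1 and −0.102 to 0.049 for VDAC2. The cause was not tested.

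The HK2 share passed the test with ADPGK left out of the family (−5.39 points), without replicate 1 of every group (−2.13 points) and without any of 4 single libraries. Over the 13 settings that left libraries out, its difference ranged from −3.03 to −1.86 points. The difference in the VDAC3 share ranged from 1.36 to 2.83 points over the same settings. The ratio of HK1 and HK2 to VDAC1 alone differed by −0.054 (exact permutation p = 0.0152). Depth limits HK3, with 0–3 counts per library, and HKDC1 in COLO320DM with empty vector.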
